A study of Rattus norvegicus with 74 samples.

Results

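The proteasome is assembled from the products of many genes whose symbols begin with Psm, and 46 of the 14217 genes measured in these rat livers carried such a symbol. They were found by symbol, as Psma, Psmb, Psmc, Psmd, Psme, Psmf or Psmg followed by a digit, with 1 probe set per gene, the one with the highest mean over all arrays. Of these, 13 encode the 20S core, 17 the 19S cap, 5 are the interferon-inducible genes Psmb8, Psmb9, Psmb10, Psme1 and Psme2, and 9 encode assembly chaperones, activators and an inhibitor. The remaining 2, Psmc3ip and Psme3ip1, encode no proteasome component and were kept because their symbols fit. Psmb6 and Psme3 are not among the 46, since their probe sets name more than 1 gene.

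Liver RNA (left lobe) came from Wistar Han rat pups, Crl:WI(Han), killed on postnatal day 22, and was read on 74 Affymetrix arrays in 15 groups of 5, except 4 in the top DE-71 group. Pups received PBDE-47, a polybrominated diphenyl ether flame retardant, by gavage at doses of 0.1, 15 and 50 mg/kg, with a 0 mg/kg group. The commercial flame retardant mixture DE-71, of which PBDE-47 is a constituent, was given at the same doses. Phenobarbital, an anticonvulsant known to activate the receptor CAR, was given at 0, 5 or 45 mg/kg, and PCB126, a dioxin-like polychlorinated biphenyl, was labelled 0, 10, 50 or 250 mg/kg, a unit that could not be checked. For the 2 flame retardants, dams were gavaged daily from gestation day 6 to 21 and the pups from postnatal day 12 to 21; the schedule of the other 2 agents, the sex of the pups and their litters were not given in the sources used here. Each 0 mg/kg group served its own agent, and the labels name no genetic change in any group. No source says which pups shared a dam, so the p-values below measure only the spread between these samples. In whole liver RNA, fewer cells of a type and less RNA per cell cannot be told apart.

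The proteasome degrades proteins tagged with ubiquitin. Its 20S core is a barrel of alpha (Psma) and beta (Psmb) rings, in which Psmb5, Psmb6 and Psmb7 encode the catalytic subunits; the 19S cap binds ubiquitin chains and, with its Psmc ATPases, unfolds substrates and feeds them into the barrel. Interferon induces Psmb8, Psmb9 and Psmb10, whose products replace the constitutive catalytic subunits to form the immunoproteasome, and also Psme1 and Psme2, the subunits of the PA28 activator, which together favour the production of peptides for MHC class I. Transcription of constitutive subunits is known to rise through the factors Nfe2l1 and Nfe2l2 when proteasome activity is short or under electrophilic stress.

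Some arrays stood apart or were too alike. In all, 4 pairs of arrays were near-identical, with a root mean square difference below 0.3 on the log2 scale over the 300 most variable genes, where the closest of the other pairs differed by 0.531. Of these, 2 pairs lay within a group (PBDE-47 0 mg/kg replicates 3 and 4, DE-71 15 mg/kg replicates 1 and 2) and were averaged, which left 72 samples and n = 4 in those groups. The other 2 pairs each joined an array labelled 15 mg/kg to one labelled 50 mg/kg of the same agent (PBDE-47 replicates 3 and 3, DE-71 replicates 5 and 4), and results were also computed without these 4 arrays. DE-71 50 mg/kg replicate 2 had the lowest correlation with the other arrays of its group (0.9783 in a range of 0.9783 to 0.9947 over the series). The difference between the GAPDH control probe sets at the 3' and 5' ends, a measure of RNA integrity, ran from -0.09 to 3.11 with a median of 0.37, and exceeded 1 on 17 arrays. The hepatocyte marker list had a mean log2 level of 13.24 to 13.67 per group, so the markers of the labelled tissue were present.

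Values are log2 probe set signals, which can be compared between samples for a gene but not between genes. A gene is said to have risen or fallen when its adjusted p was below 0.05 in limma, with Benjamini-Hochberg adjustment over all 14217 genes. Over the 11 comparisons of a dose with the 0 mg/kg group of its agent, 39 of the 46 genes rose at least once and 0 fell. The count was 4 at PBDE-47 15 mg/kg, 12 at 50 mg/kg, 4 at DE-71 15 mg/kg, 34 at 50 mg/kg and 7 at phenobarbital 45 mg/kg. Against these stand 0.598%, 2.35%, 1.01%, 4.83% and 1.38% of all genes that rose in the same comparisons, while 0.225%, 1.68%, 0.239%, 5.35% and 1.32% fell. No member passed in the other 6 comparisons, which are the 0.1 mg/kg doses of PBDE-47 and DE-71 (0% of all genes rose in each), phenobarbital 5 mg/kg (0.0844% rose and 0.0211% fell) and the 3 PCB126 doses.

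**Figure D1:**
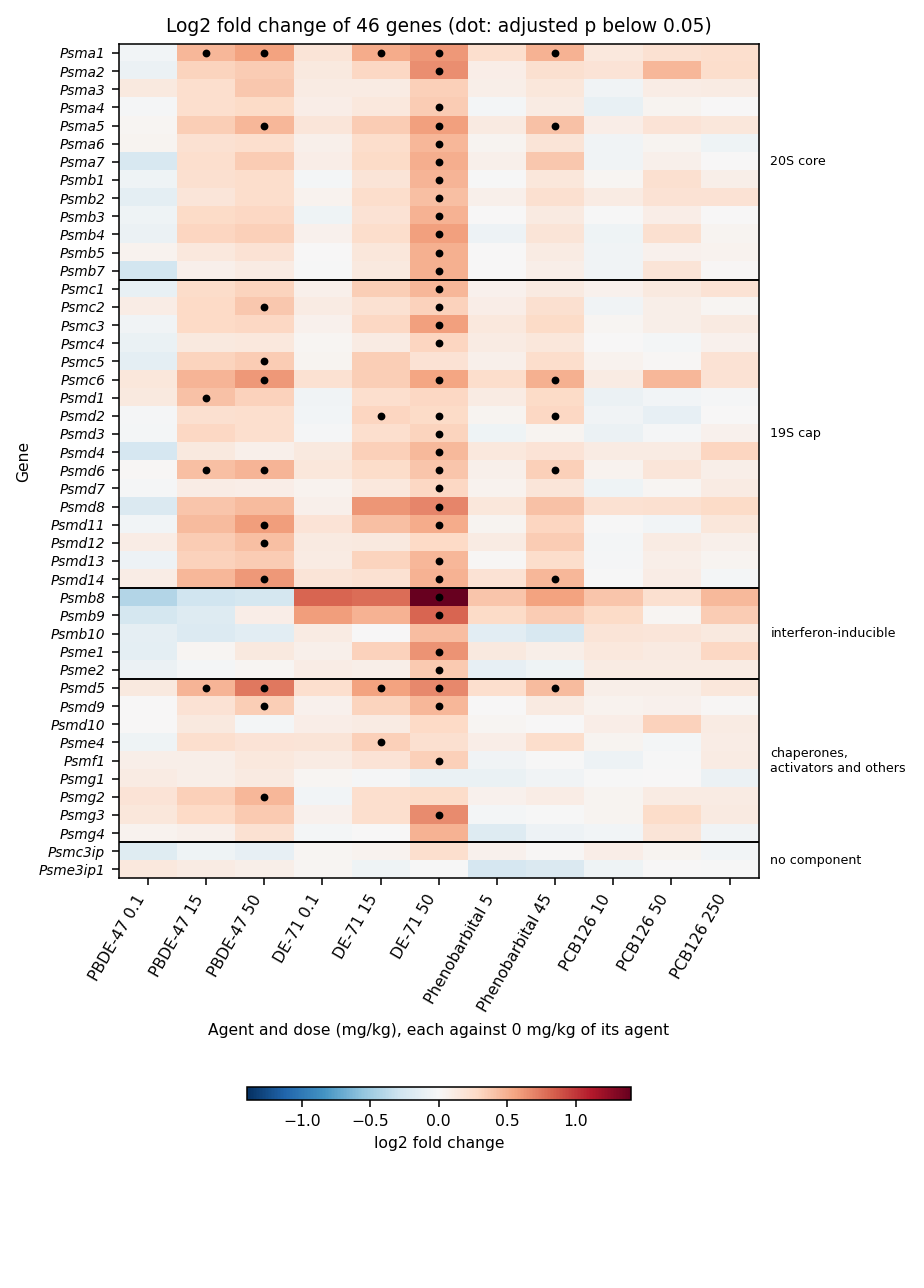
Each cell is the log2 fold change of 1 of the 46 genes (rows, by class) at 1 dose against the 0 mg/kg group of its agent (columns), with red above 0 and blue below, and a dot marks an adjusted p below 0.05 in limma. The dots lie in 5 columns, most of them (34) at DE-71 50 mg/kg, and the darkest cell is Psmb8 at that dose with a log2 fold change of 1.4.

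Psma1 and Psmd5 were the 2 genes that rose in all 5 of those comparisons. Psma1 encodes an alpha subunit of the core ring. In the 0 mg/kg group of PBDE-47, the log2 values of Psma1 were 9.43, 9.66, 9.55 (the averaged pair) and 9.68, with a mean of 9.58 ± 0.12 (SD, n = 4). At 15 mg/kg they were 9.88, 9.99, 10.34, 10.11 and 9.88, with a mean of 10.04 ± 0.19 (SD, n = 5), and at 50 mg/kg 10.31, 9.98, 10.2, 10.1 and 10.1, with a mean of 10.14 ± 0.12 (SD, n = 5). Every sample at either dose lay above every control. The log2 fold change was 0.46 at 15 mg/kg (limma adjusted p = 0.019) and 0.56 at 50 mg/kg (95% interval 0.34 to 0.78, limma adjusted p = 0.00053).

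Under DE-71, Psma1 read 9.76, 9.77, 9.35, 9.37 and 9.45 at 0 mg/kg (mean 9.54 ± 0.21, SD, n = 5). It read 10.01, 10.1, 10.16 and 9.96 at 15 mg/kg (10.06 ± 0.09, SD, n = 4) and 10.09, 9.93, 10.07 and 10.49 at 50 mg/kg (10.15 ± 0.24, SD, n = 4). Again no treated sample overlapped the controls, and the log2 fold changes were 0.52 (limma adjusted p = 0.0038) and 0.61 (limma adjusted p = 9.8e-05). Phenobarbital gave the tightest group: 10.38, 10.4, 10.44, 10.42 and 10.47 at 45 mg/kg (10.42 ± 0.04, SD, n = 5) against 9.89, 9.96, 9.63, 10.09 and 10.06 at 0 mg/kg (9.93 ± 0.18, SD, n = 5), without overlap, a log2 fold change of 0.49 (limma adjusted p = 0.0018). Under PCB126 the groups overlapped, at 9.17, 9.56, 9.9, 9.51 and 9.74 without PCB126 and 9.85, 9.74, 9.84, 9.66 and 9.95 at 250 mg/kg.

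Psmd5 encodes a chaperone that binds the ATPase ring while the cap is assembled. Its log2 values were 8.7, 8.72, 8.59 and 9.01 in the PBDE-47 controls (8.75 ± 0.18, SD, n = 4), 8.83, 9.08, 9.5, 9.39 and 9.35 at 15 mg/kg (9.23 ± 0.27, SD, n = 5) and 9.65, 9.51, 9.57, 9.26 and 9.47 at 50 mg/kg (9.49 ± 0.14, SD, n = 5). The lowest 15 mg/kg sample lay within the range of the controls, and all 5 samples at 50 mg/kg lay above it. The log2 fold change was 0.48 at 15 mg/kg (limma adjusted p = 0.039) and 0.74 at 50 mg/kg (standard error 0.12, 95% interval 0.49 to 0.99, limma adjusted p = 3.5e-05), the smallest adjusted p of any member in that comparison. Under DE-71, Psmd5 read 8.89, 8.8, 8.68, 8.5 and 9.02 at 0 mg/kg, 9.42, 9.41, 9.38 and 9.14 at 15 mg/kg, and 9.65, 9.3, 9.01 and 9.81 at 50 mg/kg. All 4 samples at 15 mg/kg were above the controls and replicate 4 at 50 mg/kg fell within them; the log2 fold changes were 0.56 (limma adjusted p = 0.0065) and 0.67 (limma adjusted p = 0.00014). With phenobarbital 45 mg/kg the values were 9.13, 9.26, 9.42, 9.37 and 9.31 against 8.85, 8.81, 8.86, 8.82 and 8.94, with no overlap and a log2 fold change of 0.44 (limma adjusted p = 0.02). The Psmd5 call at PBDE-47 15 mg/kg was lost in 6 of the 9 fits that left out 1 sample. It was also lost there in 5 of the 8 other settings tried. At phenobarbital 45 mg/kg it was lost in 4 of 10 such fits, and at DE-71 15 mg/kg in 2 of 8 other settings. For Psma1 at PBDE-47 15 mg/kg the losses were 3 of 9 and 2 of 8.

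The promoters of these 2 genes, which rose in the same comparisons, are shown from 250 bases before to 50 bases after the RefSeq gene start in GRCr8. They were searched on both strands for 3 short motifs: the antioxidant response element core TGACNNNGC, bound by Nfe2l1 and Nfe2l2; the interferon-stimulated response element core, which is GAAA, any 2 bases and GAAA again; and the CCAAT box. Matches are in capitals and are descriptions of letters only. Psma1 (chr1:177887808-177888107, minus strand) held a CCAAT box 123 bases before the start, and Psmd5 (chr3:38548441-38548740, minus strand) held none of the 3.
Psma1: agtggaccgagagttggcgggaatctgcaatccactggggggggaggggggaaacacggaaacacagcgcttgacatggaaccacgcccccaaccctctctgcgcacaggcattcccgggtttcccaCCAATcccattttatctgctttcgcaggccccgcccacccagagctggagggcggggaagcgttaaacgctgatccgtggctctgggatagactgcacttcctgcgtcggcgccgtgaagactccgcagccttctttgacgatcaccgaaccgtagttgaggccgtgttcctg
Psmd5: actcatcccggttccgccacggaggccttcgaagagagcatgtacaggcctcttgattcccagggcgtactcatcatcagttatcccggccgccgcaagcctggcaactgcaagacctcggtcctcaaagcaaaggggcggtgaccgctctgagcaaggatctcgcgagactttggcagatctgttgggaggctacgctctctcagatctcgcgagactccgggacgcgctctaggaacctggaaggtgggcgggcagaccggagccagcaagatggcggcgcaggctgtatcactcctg
Among the 42 members with such a window, 7 held the antioxidant response element core (16.7%, against 12.2% of all 27457 promoters in the table) and 22 a CCAAT box (52.4% against 37.7%). In the 20S core the CCAAT box was in 9 of 12 windows (75%).

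At 50 mg/kg, PBDE-47 was accompanied by higher values of constitutive subunits: 7 of 17 cap genes, 2 of 13 core genes, 3 of 9 chaperones and activators, and 0 of 5 interferon-inducible genes rose. The core genes were Psma1 and the alpha subunit gene Psma5. The cap genes were the ATPases Psmc2, Psmc5 and Psmc6 and the lid subunits Psmd6, Psmd11, Psmd12 and Psmd14, and the assembly factors were Psmd5, Psmd9 and Psmg2. All 13 core and 17 cap genes had a log2 fold change above 0, with medians of 0.29 and 0.35, where the median of all genes lay between -0.02 and 0.01 in each comparison. Every treated sample exceeded every control for 22 of the 46 genes, against 4.23% of all genes.

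Psmd14 encodes the deubiquitinase of the lid, which strips ubiquitin from a substrate as it enters. It read 9.39, 9.15, 8.89 and 9.23 in the PBDE-47 controls (9.17 ± 0.21, SD, n = 4) and 10.05, 9.69, 9.82, 9.7 and 9.64 at 50 mg/kg (9.78 ± 0.16, SD, n = 5). The groups did not overlap, and the log2 fold change was 0.61 (limma adjusted p = 0.00089). The ATPase Psmc6 read 9.15, 8.93, 9.03 and 9.52 against 9.97, 9.73, 9.82, 9.68 and 9.66, also without overlap, for a log2 fold change of 0.61 (limma adjusted p = 0.0071). The lid gene Psmd11 read 9.59, 9.58, 9.68 and 9.42 against 10.19, 9.82, 10.31, 10.15 and 10.31. Its groups were separate, with a log2 fold change of 0.59 (limma adjusted p = 0.0028). Another probe set of Psmd11, a dim one with a mean of 2.94, differed in sign (log2 fold change -0.03).

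Smaller changes had tight groups. The ATPase Psmc2 read 10.75, 10.7, 10.65 and 10.69 in the controls and 11.14, 10.95, 11.16, 11.09 and 11.06 at 50 mg/kg, a log2 fold change of 0.38 (limma adjusted p = 0.0012). The core assembly chaperone Psmg2 read 8.04, 7.68, 7.78 and 7.95 against 8.28, 8.34, 8.49, 8.19 and 8.36, a log2 fold change of 0.47 (limma adjusted p = 0.00046). The lid gene Psmd6 read 9.14, 9.08, 8.93 and 9.27 against 9.72, 9.56, 9.69, 9.49 and 9.46, a log2 fold change of 0.48 (limma adjusted p = 0.0013). No treated sample of Psmc2, Psmg2 or Psmd6 overlapped a control. Psma5 read 10.02, 9.85, 9.86 and 10.2 against 10.63, 10.33, 10.61, 10.35 and 10.3, separate by a narrow margin, with a log2 fold change of 0.46 (limma adjusted p = 0.0083). The lid gene Psmd12 read 8.65, 8.37, 8.18 and 8.17 against 8.71, 8.63, 8.92, 8.78 and 8.77, with 1 treated sample inside the controls and a log2 fold change of 0.42 (limma adjusted p = 0.037). Psmd9, a chaperone of cap assembly, read 7.87, 8.12, 7.91 and 8.18 against 8.33, 8.4, 8.37, 8.35 and 8.33, a small difference of 0.34 (limma adjusted p = 0.047). Its call was lost in 8 of the 9 fits that left out 1 sample and in 4 of the 8 other settings tried. For the ATPase Psmc5 the log2 fold change was 0.36 (limma adjusted p = 0.033), also with separate groups. Leaving out each sample in turn gave 8 to 14 called members, and Psma1, Psmc2, Psmd5, Psmd6, Psmd11, Psmd14 and Psmg2 passed in every such fit and in each of the 8 other settings tried.

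At 15 mg/kg of PBDE-47 the core and cap medians were 0.23 and 0.31, again with every core and cap gene above 0, and 14 of the 46 genes had every treated sample above every control (2.79% of all genes). The 4 called genes were Psma1, Psmd5, Psmd6 and the cap scaffold Psmd1. Psmd1 read 8.34, 8.26, 8.29 and 8.33 in the controls and 8.41, 8.69, 8.85, 8.81 and 8.83 at 15 mg/kg. All 5 treated samples were higher, replicate 1 by the least, and the log2 fold change was 0.41 (limma adjusted p = 0.033). Psmd6 read 9.29, 9.49, 9.62, 9.6 and 9.61 at this dose, above all 4 controls, a log2 fold change of 0.42 (limma adjusted p = 0.019). The number of calls was 0 without replicate 3 of the dose group, 0 without the averaged control pair, 1 without control replicate 2, dose replicate 4 or dose replicate 5, and 8 without dose replicate 1; it was also 0 without the near-identical arrays of 15 and 50 mg/kg, where 19 members had an unadjusted p below 0.05 and the core and cap medians were 0.2 and 0.26.

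**Figure D2:**
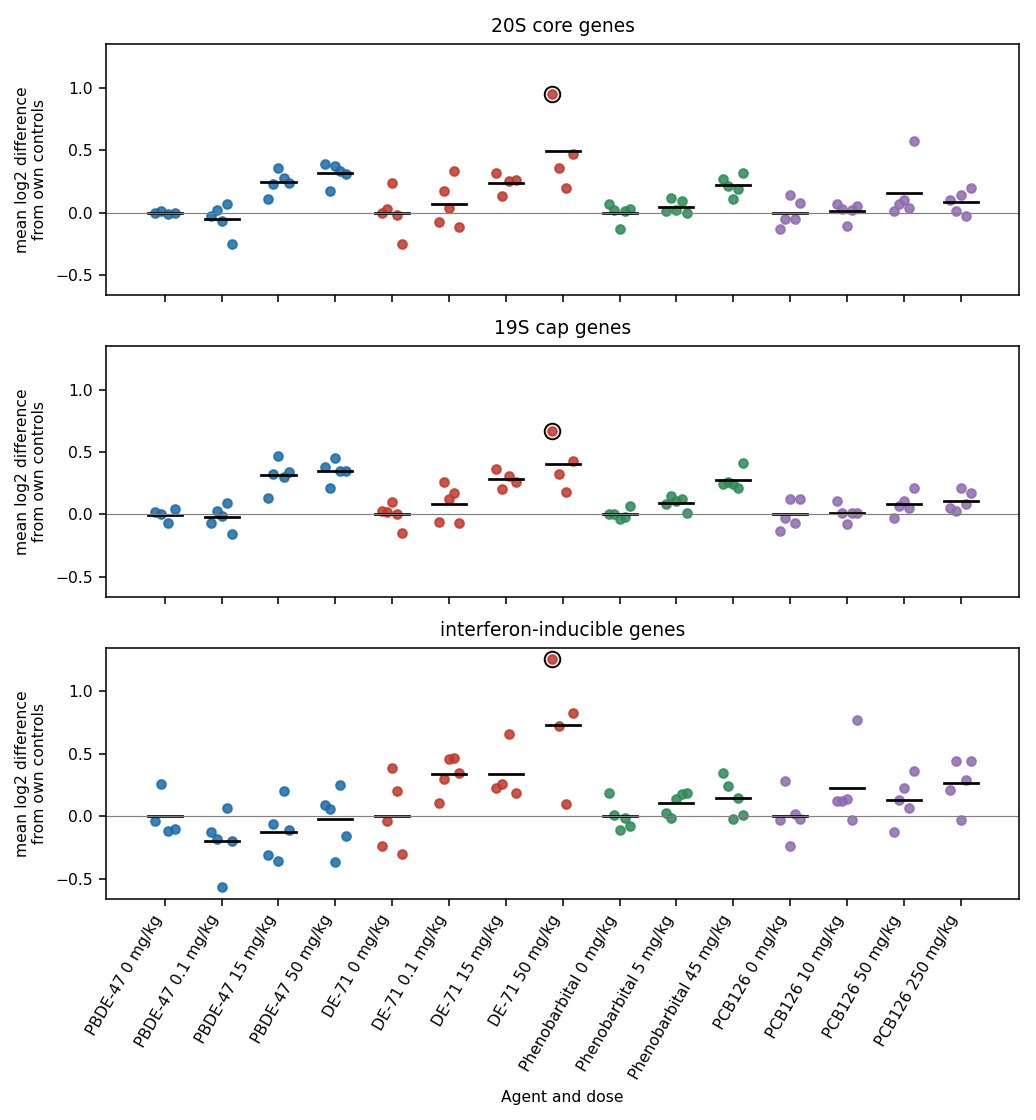
Points show, for each sample, the mean log2 difference of the 20S core, 19S cap and interferon-inducible genes from the 0 mg/kg mean of its agent, by agent and dose, with the group mean as a bar; the ring marks DE-71 50 mg/kg replicate 2. Core and cap means at PBDE-47 50 mg/kg lie between 0.17 and 0.45, while the ringed sample stands at 0.95 for the core, 0.67 for the cap and 1.26 for the inducible genes.

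Phenobarbital at 45 mg/kg was followed by smaller shifts, with class medians of 0.18 (core), 0.27 (cap) and 0.08 (inducible), and all 13 core and 17 cap genes above 0. In 12 of the 46 genes every treated sample exceeded every control (2.24% of all genes). The 7 genes that rose were Psma1 and Psma5 of the core, Psmc6, Psmd2, Psmd6 and Psmd14 of the cap, and Psmd5. Psma5 read 10.36, 10.33, 10.07, 10.33 and 10.47 in the controls and 10.74, 10.66, 10.68, 10.67 and 10.87 at 45 mg/kg, with no overlap and a log2 fold change of 0.41 (limma adjusted p = 0.019). Psmd14 read 9.09, 9.29, 9.58, 9.46 and 9.43 against 9.7, 9.91, 9.97, 9.71 and 9.95, likewise separate, a log2 fold change of 0.47 (limma adjusted p = 0.013). Psmd2, a scaffold of the cap that receives ubiquitin carriers, read 10, 10.01, 9.88, 9.92 and 10 against 10.31, 10.29, 10.03, 10.18 and 10.44. Its lowest treated sample was just above the highest control, and the log2 fold change was 0.29 (limma adjusted p = 0.014). Psmc6 read 9.16, 9.62, 9.45, 9.6 and 9.59 against 9.99, 9.86, 10.03, 9.84 and 10.2, a log2 fold change of 0.5 (limma adjusted p = 0.034), and another of its probe sets, with a mean of 6.88, gave -0.07. Psmd6 read 9.54, 9.5, 9.4, 9.41 and 9.37 against 9.75, 9.79, 9.62, 9.74 and 9.96, a log2 fold change of 0.33 (limma adjusted p = 0.043). Neither of the 2 had overlapping groups. The Psmd6 call was lost in 9 of the 10 fits that left out 1 sample, and the Psmc6 call in 5. Both were also lost without arrays of high 3' to 5' difference. Replicate 5 of the dose group had the highest mean of the cap genes, 0.41 against 0.21 to 0.26 in the other 4 samples, and without it 2 members rose; without control replicate 3, 4 did. At 5 mg/kg no member passed, 3 had an unadjusted p below 0.05 (6.59% of all genes), and Psme3ip1 ranked first (log2 fold change -0.23, limma adjusted p = 0.44).

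The lists of called members were compared between agents, which have controls of their own. PBDE-47 50 mg/kg and phenobarbital 45 mg/kg shared 6 genes (Psma1, Psma5, Psmc6, Psmd5, Psmd6 and Psmd14), which is 50% of the first list and 85.7% of the second, where 26.1% and 15.2% of the 46 members were called. PBDE-47 50 mg/kg and DE-71 50 mg/kg shared 9, or 75% of the first list and 26.5% of the second. DE-71 50 mg/kg called 73.9% of the members, so the 75% is near the share that any list of members would have there, and the same holds for the 7 genes of phenobarbital, all of which were among its 34. Across the 46 members, the log2 fold changes at PBDE-47 50 mg/kg had a correlation of 0.01 with those at DE-71 50 mg/kg (0.55 over all genes) and 0.53 with those at phenobarbital 45 mg/kg (0.66 over all genes), which are descriptions across genes that share arrays. Of the 46 genes, 29 were called in 1 comparison, 3 in 2, 4 in 3, Psmd6 in 4, and Psma1 and Psmd5 in 5. The 7 never called were Psma3, Psmb10, Psmd10, Psmg1, Psmg4, Psmc3ip and Psme3ip1.

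**Figure D3:**
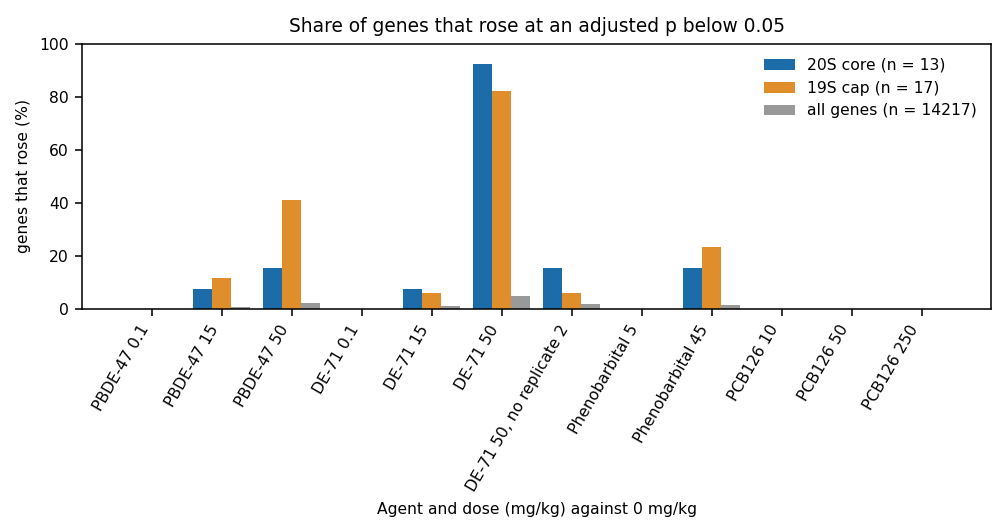
Bars give the percentage of the 20S core, of the 19S cap and of all genes that rose (limma adjusted p below 0.05) in each of the 11 comparisons. A further set of bars gives DE-71 50 mg/kg without replicate 2. At DE-71 50 mg/kg 12 of 13 core and 14 of 17 cap genes rose against 4.83% of all genes, and without replicate 2 only Psma1 and Psma5 of the core and Psmd2 of the cap did.

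DE-71 at 15 mg/kg gave core, cap and inducible medians of 0.25, 0.29 and 0.32, with every core and cap gene above 0 and 12 of 46 genes without overlap (1.81% of all genes). The 4 genes that rose were Psma1, Psmd5, Psmd2 and Psme4, which encodes the PA200 activator. Psmd2 read 9.85, 9.79, 9.54, 9.82 and 9.73 in the controls and 10.15, 9.98, 10.02 and 10.04 at 15 mg/kg, with no overlap and a log2 fold change of 0.3 (limma adjusted p = 0.029). Psme4 read 9.48, 9.55, 9.26, 9.38 and 9.51 against 9.81, 9.77, 9.87 and 9.61. Its groups were separate too, with a log2 fold change of 0.33 (limma adjusted p = 0.035). The count was 2 without control replicate 3, without the averaged pair of the dose group or without its replicate 4, and 0 when the fit held only the arrays compared, where 24 members had an unadjusted p below 0.05. Without arrays whose GAPDH 3' to 5' difference exceeded 1, the calls of Psmd2, Psmd5 and Psme4 were lost and that of Psma1 was kept. That difference reached 1.77 in the controls and 0.49 in the dose group. The part of RNA quality was not tested.

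At DE-71 50 mg/kg, 34 of the 46 genes rose: 12 of 13 core genes, 14 of 17 cap genes, 4 of 5 inducible genes and 4 of the 9 chaperones and activators (Psmd5, Psmd9, Psmf1 and Psmg3). The class medians were 0.5, 0.39 and 0.63. This count rested largely on replicate 2, whose core, cap and inducible means were 0.95, 0.67 and 1.26 against 0.36, 0.2 and 0.47 (core), 0.32, 0.18 and 0.43 (cap) and 0.72, 0.1 and 0.83 (inducible) in replicates 3, 4 and 5. It was the highest of the 4 samples for 33 of the 46 genes (71.7%, against 32.1% of all genes). Without it 5 genes rose, Psma1, Psma5, Psmd2, Psmd5 and Psme1, where 1.7% of all genes rose, and the medians were 0.34, 0.3 and 0.5; 34 members then had an unadjusted p below 0.05 (6.76% of all genes). The groups did not overlap for 8 members with replicate 2 and 9 without it (2.69% and 3.28% of all genes). In a fit of only the arrays compared, 0 members passed with replicate 2 (33 with an unadjusted p below 0.05) and 0 without it (25). Without the near-identical arrays, which include replicate 4 of this group, 40 rose. The mean of the 5 measured neutrophil markers was 1.38 in replicate 2 against -0.06, -0.19 and -0.01 in the other 3. These markers were dim, with a mean log2 level of 4.45 to 6.02 in this group beside array medians of 4.84 to 4.92. Replicate 2 also had the highest mean of the 4 samples for NRF2 (Nfe2l2) targets (1.39). It had the lowest for endothelial markers (-0.7) and for stellate cell and fibroblast markers (-0.71). The part of these lists in the result was not tested.

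The values of single genes show the same sample. Psma5 read 10.05, 10.15, 10.14, 9.79 and 9.92 in the DE-71 controls and 10.91, 10.3, 10.33 and 10.77 at 50 mg/kg, where every treated sample was higher. Its log2 fold change was 0.57 (limma adjusted p = 0.00041) and 0.46 without replicate 2 (limma adjusted p = 0.018). The alpha subunit Psma2 read 9.73, 9.68, 9.88, 9.69 and 9.58 against 11.09, 9.87, 10.11 and 10.35, with replicate 2 far above and replicate 3 within the controls, a log2 fold change of 0.65 (limma adjusted p = 0.0085) and 0.4 without replicate 2 (limma adjusted p = 0.24). The structural beta subunit Psmb4 read 11.51, 11.69, 12.04, 11.7 and 11.35 against 12.92, 12.19, 11.79 and 12, with replicates 4 and 5 inside the range of the controls and a log2 fold change of 0.57 (limma adjusted p = 0.003), or 0.34 without replicate 2 (limma adjusted p = 0.16). The alpha subunit Psma7 read 10.05, 10.09, 10.8, 10.38 and 10.09 against 11.17, 10.71, 10.46 and 10.84, where replicates 3 and 4 were below the highest control and the log2 fold change was 0.51 (limma adjusted p = 0.0026), or 0.39 without replicate 2 (limma adjusted p = 0.076).

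In the cap, the ATPase Psmc3 read 9.82, 10.09, 10.07, 9.87 and 9.83 against 11.08, 10.2, 10.21 and 10.56, without overlap, a log2 fold change of 0.57 (limma adjusted p = 0.00064). The lid gene Psmd8 had the largest change of the class, a log2 fold change of 0.68 (limma adjusted p = 0.014), on control values of 9.69, 9.89, 9.29, 9.17 and 9.83 and treated values of 10.71, 9.77, 10.11 and 10.4, where replicate 3 was within the controls. Among the chaperones, Psmg3 read 7.41, 7.48, 7.57, 7.61 and 7.15 against 8.8, 7.96, 7.63 and 8.02. Its lowest treated value was just above the controls, and its log2 fold change was 0.66 (limma adjusted p = 0.0012). Psmc6 read 9.36, 9.72, 9.72, 9.32 and 9.12 against 10.5, 9.88, 9.65 and 9.93, a log2 fold change of 0.55 (limma adjusted p = 0.011). Psmd11 read 9.33, 9.25, 9.76, 9.73 and 9.06 against 10.22, 10.17, 9.53 and 9.86, and Psmd14 read 9.32, 9.31, 9.66, 9.38 and 9.19 against 10.3, 9.82, 9.58 and 9.77, with log2 fold changes of 0.52 (limma adjusted p = 0.0061) and 0.49 (limma adjusted p = 0.0062). In these 3 genes replicate 4 lay within the controls and replicate 2 was the highest. Psmd9 read 8.11, 7.98, 8.29, 8.2 and 7.94 against 9.06, 8.49, 8.18 and 8.56, a log2 fold change of 0.47 (limma adjusted p = 0.0013), again with replicate 4 among the controls. Psmf1, an inhibitor of the core, read 8.96, 8.75, 8.98, 9.33 and 8.9 against 9.3, 9.38, 9.12 and 9.45, on overlapping groups, a log2 fold change of 0.33 (limma adjusted p = 0.036). The other core genes that rose were Psma4, Psma6, Psmb1, Psmb2 and Psmb3, at 0.36 to 0.49, and the catalytic Psmb5 and Psmb7. The other cap genes were Psmc1, Psmc2, Psmc4, Psmd2, Psmd3, Psmd4, Psmd6, Psmd7 and Psmd13, at 0.27 to 0.47. Psma3, Psmc5, Psmd1 and Psmd12 of the core and cap did not pass, with log2 fold changes of 0.33, 0.2, 0.29 and 0.28. Without replicate 2, many log2 fold changes shrank by more than 1.5 times. Among them were Psmb1, Psmb3, Psmc4, Psmd9 and Psmg3, to 0.24, 0.31, 0.17, 0.31 and 0.43. The uncalled Psma3 and Psmd12 shrank to 0.13 and 0.14. Psma2, Psmb4, Psmb7, Psmb10 and Psme2 shrank as much, with values given where each gene is described.

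The 5 interferon-inducible genes had a median log2 fold change of 0.63 at DE-71 50 mg/kg and 0.03 at PBDE-47 50 mg/kg. Psmb8, which replaces Psmb5 in the immunoproteasome, read 6.23, 7.11, 7.56, 7.29 and 6.66 in the DE-71 controls (6.97 ± 0.53, SD, n = 5), 7.53, 7.64, 8.15, 7.73 and 7.84 at 0.1 mg/kg (7.78 ± 0.24, SD, n = 5), 7.31, 7.9, 8.37 and 7.43 at 15 mg/kg (7.75 ± 0.48, SD, n = 4) and 9.02, 8.63, 7.27 and 8.55 at 50 mg/kg (8.37 ± 0.76, SD, n = 4). The controls themselves spread over more than 1 log2 unit, and replicate 4 at 50 mg/kg stayed among them. The change at 50 mg/kg was 2.63-fold (log2 1.4, 95% interval 0.74 to 2.05, limma adjusted p = 0.0027). Without replicate 2 it was 1.18 on the log2 scale (95% interval 0.48 to 1.88) and its limma adjusted p of 0.05 no longer passed. Under PBDE-47, Psmb8 read 7.59, 8.29, 7.27 and 7.46 at 0 mg/kg and 7.86, 7.85, 6.38, 7.98 and 6.92 at 50 mg/kg, with overlapping groups and a log2 fold change of -0.25 (95% interval -0.91 to 0.4).

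Psmb9, which takes the place of Psmb6, read 7.13, 6.96, 7.39, 7.45 and 7.3 in the DE-71 controls and 8.33, 8.16, 7.36 and 8.43 at 50 mg/kg. All but replicate 4 of the treated samples exceeded the controls, and the log2 fold change was 0.82 (limma adjusted p = 0.0066; 0.74 and adjusted p = 0.067 without replicate 2). Psmb10, which replaces Psmb7, read 8.15, 8.16, 9.03, 8.83 and 7.77 against 9.59, 8.73, 8.28 and 8.66. The groups overlapped, and the log2 fold change of 0.43 did not pass (limma adjusted p = 0.091), nor did 0.17 without replicate 2 (limma adjusted p = 0.71). Psme1, a PA28 subunit, read 10.79, 10.95, 10.97, 10.67 and 10.46 against 11.79, 11.19, 10.96 and 11.65. Replicate 4 lay within the controls, and the log2 fold change was 0.63 (limma adjusted p = 0.00018), and 0.5 without replicate 2 (limma adjusted p = 0.012). Its partner Psme2 read 9.44, 9.57, 9.94, 9.71 and 9.27 against 10.55, 9.86, 9.59 and 9.84, overlapping, with a log2 fold change of 0.37 (limma adjusted p = 0.026) and 0.18 without replicate 2 (limma adjusted p = 0.49).

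Of the constitutive counterparts, Psmb5 read 10.73, 10.65, 11, 10.68 and 10.37 in the DE-71 controls and 11.65, 11.12, 10.84 and 11.14 at 50 mg/kg, a log2 fold change of 0.5 (limma adjusted p = 0.0012) with replicate 4 inside the controls. Psmb7 read 9.36, 9.24, 9.47, 9.17 and 8.4 against 10.25, 9.59, 9.22 and 9.45, a log2 fold change of 0.5 (limma adjusted p = 0.047) on groups that overlapped. Neither passed without replicate 2, at 0.35 (limma adjusted p = 0.067) and 0.29 (limma adjusted p = 0.48). The log2 fold change of Psmb8 was thus larger than that of Psmb5 and that of Psmb10 smaller than that of Psmb7, and these differences between genes were not tested.

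**Figure D4:**
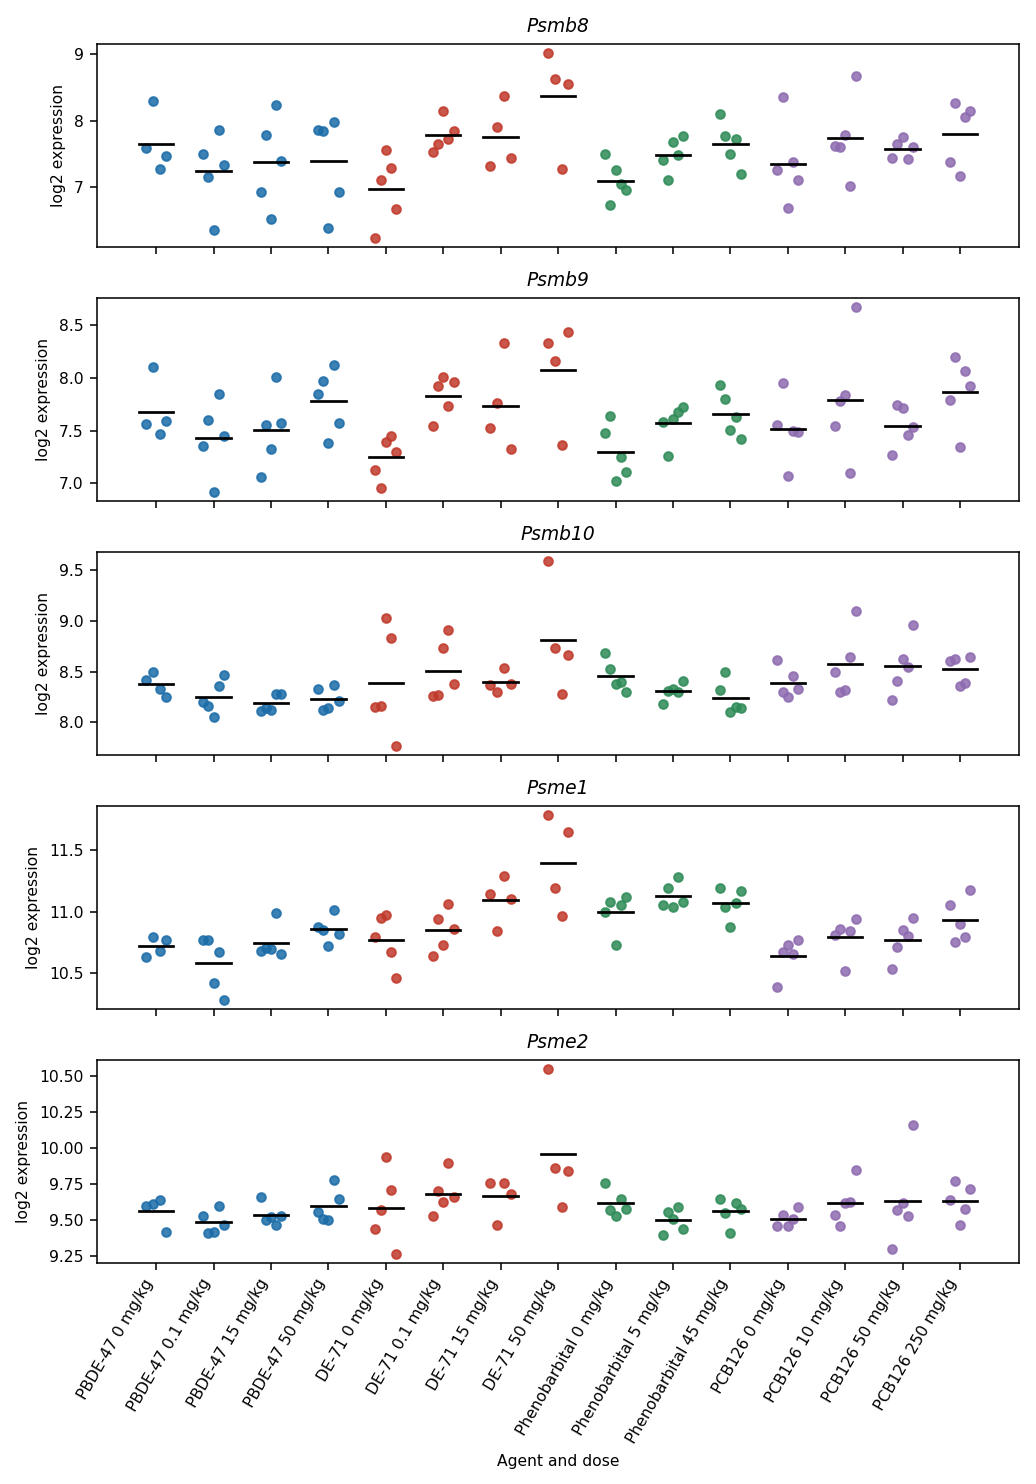
Points give the log2 level of the 5 interferon-inducible genes in every sample of the 15 groups, coloured by agent, with group means as bars and a log2 axis of its own range for each gene. At DE-71 50 mg/kg the mean of Psmb8 is 8.37 against 6.97 at 0 mg/kg, with 1 of the 4 samples among the controls, while at PBDE-47 50 mg/kg its mean is 7.4 against 7.65.

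Phenobarbital and PCB126 gave no called change of the inducible genes. Psmb8 read 7.5, 6.72, 7.26, 7.05 and 6.95 in the phenobarbital controls (7.09 ± 0.3, SD, n = 5) and 8.1, 7.77, 7.49, 7.72 and 7.19 at 45 mg/kg (7.66 ± 0.34, SD, n = 5). The groups overlapped, and the log2 fold change was 0.56 (95% interval -0.05 to 1.18, limma adjusted p = 0.46). For Psmb9 it was 0.36 (95% interval -0.04 to 0.76) and for Psmb10, Psme1 and Psme2 -0.22, 0.08 and -0.06. At PCB126 250 mg/kg, Psme1 read 11.05, 10.75, 10.9, 10.79 and 11.18 against 10.38, 10.67, 10.73, 10.65 and 10.77 in the controls. Its lowest treated sample lay just under the highest control, and the log2 fold change was 0.29 (95% interval 0.07 to 0.52, limma adjusted p = 0.72). Psmb8, Psmb9, Psmb10 and Psme2 had log2 fold changes of 0.45, 0.35, 0.14 and 0.12 there, with 95% intervals that include 0.

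The promoters of 3 inducible genes that held the interferon-stimulated core, and of the constitutive Psmb5, are given for the same window and motifs. Psmb5 (chr15:32047330-32047629, minus strand) held an antioxidant response element core 60 bases before the start. Psmb8 (chr20:4656982-4657281, minus strand) held a CCAAT box on the other strand and an interferon-stimulated response element core on the other strand 4 bases before the start. Psmb10 (chr19:50743243-50743542, minus strand) held that core at 73 and 17 bases before the start, and Psme2 (chr15:33052702-33053001, minus strand) at 53 bases.
Psmb5: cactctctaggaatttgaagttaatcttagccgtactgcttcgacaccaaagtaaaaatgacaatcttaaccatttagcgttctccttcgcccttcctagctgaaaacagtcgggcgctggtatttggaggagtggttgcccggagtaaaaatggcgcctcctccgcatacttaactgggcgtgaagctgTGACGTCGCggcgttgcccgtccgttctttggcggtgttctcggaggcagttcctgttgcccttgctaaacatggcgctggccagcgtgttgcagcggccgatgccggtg
Psmb8: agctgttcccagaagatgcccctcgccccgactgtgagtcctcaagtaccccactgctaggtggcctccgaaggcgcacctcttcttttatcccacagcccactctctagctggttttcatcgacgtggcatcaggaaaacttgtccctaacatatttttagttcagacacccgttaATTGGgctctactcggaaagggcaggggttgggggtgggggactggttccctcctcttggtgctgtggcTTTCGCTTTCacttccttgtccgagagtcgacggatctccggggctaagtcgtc
Psmb10: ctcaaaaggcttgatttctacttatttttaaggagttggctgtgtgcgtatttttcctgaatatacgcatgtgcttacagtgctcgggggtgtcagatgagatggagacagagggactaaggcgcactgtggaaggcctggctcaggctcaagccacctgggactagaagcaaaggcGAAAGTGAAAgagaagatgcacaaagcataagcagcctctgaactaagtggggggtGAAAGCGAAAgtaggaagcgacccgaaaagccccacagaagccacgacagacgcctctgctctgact
Psme2: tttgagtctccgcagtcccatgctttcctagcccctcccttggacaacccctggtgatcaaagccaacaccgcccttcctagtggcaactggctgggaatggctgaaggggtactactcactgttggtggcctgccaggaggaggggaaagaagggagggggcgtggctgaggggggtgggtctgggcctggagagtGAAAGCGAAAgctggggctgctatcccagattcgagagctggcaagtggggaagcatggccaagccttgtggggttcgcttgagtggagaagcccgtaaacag
The interferon-stimulated core was in 3 of the 5 inducible windows (60%), in 7 of the 42 member windows (16.7%) and in 3.77% of all promoters. Psmb10, with 2 cores, was not called, while Psmb9 and Psme1 rose and held none in this window.

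DE-71 contains PBDE-47 among other congeners, and the difference of their responses was tested at each of the 3 matched doses. No member passed at 0.1, 15 or 50 mg/kg, where 0%, 0.0141% and 0.12% of all genes did. At 50 mg/kg all 5 inducible genes had an unadjusted p below 0.05, and in all 6 of the 46 members did (11.4% of all genes). The difference was 1.65 on the log2 scale for Psmb8 (95% interval 0.72 to 2.57, limma adjusted p = 0.14), 0.73 for Psmb9 (limma adjusted p = 0.34), 0.57 for Psmb10 (limma adjusted p = 0.34), 0.49 for Psme1 (95% interval 0.15 to 0.83, limma adjusted p = 0.28) and 0.34 for Psme2 (limma adjusted p = 0.42). Psmb8 passed in the fit without replicate 4 of the DE-71 50 mg/kg group (2.02, limma adjusted p = 0.016) and without the 4 near-identical arrays (1.76, limma adjusted p = 0.048). Without replicate 2 of the DE-71 50 mg/kg group, no member passed and 3 had an unadjusted p below 0.05. The differences were then 1.43 for Psmb8, 0.64 for Psmb9, 0.32 for Psmb10, 0.36 for Psme1 and 0.14 for Psme2, and the class medians 0.36 (inducible), 0.03 (core) and -0.02 (cap). With all samples, the difference for Psmb5 was 0.31 (95% interval -0.01 to 0.62) and for Psmb7 0.38 (-0.1 to 0.86). The median difference was 0.57 in the inducible class, 0.2 in the core and 0.04 in the cap, against 0.02 over all genes.

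The lower matched doses also had positive differences for all 5 inducible genes, without a call. At 15 mg/kg the difference for Psmb8 was 1.06 (95% interval 0.13 to 1.98, limma adjusted p = 0.97), and the class median was 0.3 against 0.01 for the core and -0.02 for the cap. At 0.1 mg/kg the difference for Psmb9 was 0.83 (95% interval 0.25 to 1.41, limma adjusted p = 0.92), and the class median was 0.25. Unadjusted p-values below 0.05 were found for 2 members at 15 mg/kg and 3 at 0.1 mg/kg (5.11% and 4.53% of all genes). Within DE-71, Psmb9 read 7.54, 7.92, 8.01, 7.73 and 7.96 at 0.1 mg/kg, above all 5 controls, which held for 1 of the 46 members and 0.183% of all genes. Its log2 fold change of 0.58 (95% interval 0.19 to 0.98) and the 0.81 of Psmb8 did not pass after adjustment (limma adjusted p = 0.65 and 0.71), and 4 members had an unadjusted p below 0.05 (6.39% of all genes). At PBDE-47 0.1 mg/kg Psmb9 read 7.35, 7.6, 6.92, 7.85 and 7.45 against 7.56, 8.1, 7.47 and 7.59 in the controls, with no separation. There 2 members had an unadjusted p below 0.05 (3.21% of all genes), and the ubiquitin receptor Psmd4 ranked first (log2 fold change -0.24, limma adjusted p = 1).

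No member passed at any dose of PCB126, where 0, 1 and 8 of all genes rose at 10, 50 and 250 mg/kg (0%, 0.00703% and 0.0563%), and 0, 4 and 3 members had an unadjusted p below 0.05 (2.67%, 5.63% and 5.82% of all genes). The core, cap and inducible medians were -0.05, -0.01 and 0.18 at 10 mg/kg, 0.18, 0.08 and 0.13 at 50 mg/kg, and 0.05, 0.08 and 0.29 at 250 mg/kg. At 10 mg/kg the first by p was Psma1 (log2 fold change 0.15, limma adjusted p = 1). At 250 mg/kg Psmd4 ranked first by p and read 8.15, 8.86, 8.6, 8.37 and 8.67 in the controls and 8.77, 9.02, 8.84, 8.62 and 8.92 at the dose, overlapping (log2 fold change 0.3, limma adjusted p = 0.66). At 50 mg/kg Psmc6 ranked first, at 8.96, 9.25, 9.75, 9.32 and 9.63 against 9.54, 9.95, 9.82, 9.53 and 10.36 (log2 fold change 0.46, limma adjusted p = 0.86). Replicate 5 was the highest there. Its core mean was 0.57 where the other 4 samples lay at 0.01 to 0.1, and without it the core median was 0.02. At 10 mg/kg the inducible median was 0.05 without replicate 5, whose inducible mean was 0.77. Neutrophil markers had a mean log2 level of 4.55 to 5.76 at PCB126 50 mg/kg, beside array medians of 4.92 to 4.97. The neutrophil marker mean of PCB126 50 mg/kg replicate 5 was 1.07. This sample and DE-71 50 mg/kg replicate 2 ranked 2 and 1 of the 72 samples for both the core and the neutrophil mean. The samples ranked 3, 4 and 5 for the core ranked 24, 70 and 64 for neutrophil markers. Those ranked 3, 4, 5 and 6 for neutrophil markers ranked 50, 17, 14 and 8 for the core. PCB126 50 mg/kg replicate 5 also had a GAPDH 3' to 5' difference of 1.4 and a mean correlation of 0.9837 with its group. The part of these markers and of RNA quality was not tested.

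Within groups most pairs of core genes had positive correlations, though not every pair. After the group means were removed, the median correlation across the 72 samples was 0.57 between core genes (-0.28 to 0.87), 0.43 between core and cap genes (-0.38 to 0.79) and 0.33 between cap genes (-0.44 to 0.84), against 0 over all pairs of genes. It was 0.45 among the inducible genes, 0.23 between them and the core and 0.11 between them and the cap. The closest inducible pairs were Psmb8 with Psmb9 (0.83) and Psmb10 with Psme2 (0.81). These are descriptions of samples that share arrays, normalization and RNA quality, and DE-71 50 mg/kg replicate 2 is among them.

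Other genes of the ubiquitin-proteasome pathway were counted in the same comparisons. Of 30 measured genes on that list, 4 rose at PBDE-47 50 mg/kg, 1 at DE-71 15 mg/kg, 7 at DE-71 50 mg/kg (2 without replicate 2), 2 at phenobarbital 45 mg/kg and 1 at PCB126 250 mg/kg. Of all genes, 2.35%, 1.01%, 4.83% (1.7% without replicate 2), 1.38% and 0.0563% rose in these comparisons. Ubqln2, a shuttle that carries ubiquitinated proteins to the proteasome, had log2 fold changes of 0.38 at PBDE-47 50 mg/kg, 0.52 and 0.55 at DE-71 15 and 50 mg/kg, and 0.45 at phenobarbital 45 mg/kg, all called. Txnl1, a thioredoxin bound to the cap, rose by 0.44 at PBDE-47 50 mg/kg, 0.37 at DE-71 50 mg/kg and 0.33 at phenobarbital 45 mg/kg. Without replicate 2 of DE-71 50 mg/kg, Txnl1 did not pass there (0.33, limma adjusted p = 0.083), while Ubqln2 still rose (0.66). The cap deubiquitinase Usp14 rose by 0.4 and Ufd1, a cofactor of the segregase Vcp, by 0.29 at PBDE-47 50 mg/kg. Nfe2l1 did not pass in these comparisons, at 0.27 (limma adjusted p = 0.36) at PBDE-47 50 mg/kg and 0.22 (limma adjusted p = 0.36) at DE-71 50 mg/kg. Nfe2l2 rose at DE-71 50 mg/kg, by 0.52 (limma adjusted p = 0.029). Without replicate 2 its log2 fold change was as large, at 0.53, with a limma adjusted p of 0.1.

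Of 16 measured NRF2 (Nfe2l2) target genes, 3 and 4 rose at PBDE-47 15 and 50 mg/kg, 5 and 10 at DE-71 15 and 50 mg/kg (6 without replicate 2), 4 at phenobarbital 45 mg/kg and 1 at PCB126 250 mg/kg. Of all genes, 0.598%, 2.35%, 1.01%, 4.83% (1.7% without replicate 2), 1.38% and 0.0563% rose in these comparisons, and 1.68% fell at PBDE-47 50 mg/kg. The transporter Abcc3 had log2 fold changes of 1.72 at PBDE-47 50 mg/kg and 1.75 at DE-71 50 mg/kg, and the epoxide hydrolase Ephx1 1.52 and 1.74. Several of these genes are also known targets of CAR. Of 27 measured interferon response genes, 13 rose at DE-71 50 mg/kg (7 without replicate 2) and 3 at DE-71 15 mg/kg, while at PBDE-47 50 mg/kg 0 rose and Irf8 fell. At DE-71 50 mg/kg the chemokine Cxcl9 had a log2 fold change of 2.99, the oligoadenylate synthetase Oas1a 1.86, Usp18 1.71 and the ubiquitin-like Isg15 1.58. The mean of that list was 1.05, 0.79, 0.24 and 0.67 in the order of the replicates, lowest in replicate 4, in which the inducible proteasome genes were also lowest. Of 13 measured MHC class I genes, 2 rose at that dose, the peptide loading factor Tapbp (0.65) and B2m (0.28), and Tapbp alone rose at 15 mg/kg (0.51). Without replicate 2, Tapbp still rose (0.56), and B2m had the same log2 fold change of 0.28 with a limma adjusted p of 0.074.

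Markers of other liver cells were set beside these results. Of all genes, 0.598%, 2.35%, 1.01%, 4.83% and 1.38% rose at PBDE-47 15 and 50 mg/kg, DE-71 15 and 50 mg/kg and phenobarbital 45 mg/kg. At PBDE-47 15 and 50 mg/kg and DE-71 50 mg/kg, 0.225%, 1.68% and 5.35% fell. Without replicate 2 of DE-71 50 mg/kg, 1.7% rose. At PBDE-47 50 mg/kg, 6 of 10 measured Kupffer cell and macrophage markers fell, among them Clec4f (log2 fold change -0.8), C1qc (-0.73) and Csf1r (-0.68), and at 15 mg/kg 1 fell. At DE-71 50 mg/kg none of those 10 fell, and 2 of 14 lymphocyte markers rose, the natural killer and T cell genes Prf1 (0.84) and Klrd1 (0.89). The median of the lymphocyte list was 0.09, and without replicate 2, 7 of the 14 were above 0. The mean level of that list in this group was 4.17 to 4.41, below the array medians of 4.84 to 4.92. At the same dose 1 of 6 endothelial markers fell, Kdr (-0.49, or -0.27 with limma adjusted p = 0.33 without replicate 2). Macrophages and lymphocytes express the inducible subunits strongly, and the part of these markers in the difference between DE-71 and PBDE-47 was not tested. Of 11 measured hepatocyte markers, the apolipoprotein gene Apoa2 rose at PBDE-47 50 mg/kg (2.13) and at DE-71 50 mg/kg (2.46), with list medians of -0.06 and -0.12. Cps1 (-0.47), Cyp2e1 (-0.46) and Serpina1 (-0.22) fell at DE-71 50 mg/kg, and without replicate 2 Cps1 (-0.3) and Cyp2e1 (-0.34) did. Of 8 stellate cell and fibroblast markers, Des rose (0.34) and Lrat (-0.58) and Pdgfrb (-0.78) fell at that dose, and none passed without replicate 2, at 0.21, -0.33 and -0.62. Of 4 cholangiocyte markers, Epcam alone rose, in the same 5 comparisons in which subunits rose. Its log2 fold changes were 0.91 and 1.35 at PBDE-47 15 and 50 mg/kg, 0.99 and 1.28 at DE-71 15 and 50 mg/kg, and 0.74 at phenobarbital 45 mg/kg. The list medians in that order were 0.01, -0.11, 0.2, 0.27 and 0. The part of Epcam in the result was not tested.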

How the data were processed

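Liver RNA of 72 samples (74 arrays) was analysed from log2 probe set values deposited by the authors. Per the submitters' processing notes the values came from RMA, whose version, and whether agents were normalized together, are not given in the sources used here. Of 31099 probe sets, 20826 name 1 gene in the platform's annotation, and the one with the highest mean stood for each of 14217 genes. A limma 3.58.1 fit (R 4.3.3) of 15 group means gave 11 dose contrasts and 3 differences between DE-71 and PBDE-47, with 57 residual and 5 prior degrees of freedom. Near-identical arrays of a group were averaged, and the number of arrays limits the precision. Data were also simulated with independent noise and, for each gene, 1 spread averaged over all groups. There 98% of genes changed 2-fold at DE-71 50 mg/kg were recovered, and 20% of those changed 1.25-fold. The simulation held no outlying sample such as replicate 2 and no correlation between genes, so it does not give the recovery in the real comparison.

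The members, the other gene lists and the tests were chosen with earlier results of these data known. Genes were named with values when called in any contrast; where over 10 were called, the 5 largest changes per class and direction were given in full, and where none was called, the gene with the smallest p. The 5 inducible genes and Psmb5 and Psmb7 were always named, and up to 4 called genes of each other list. Alternatives were a second quantile normalization, every array as a sample, a replicate block, the mean of a gene's probe sets, a filter on dim genes (log2 5 in 4 samples), fits of only the arrays compared, and leaving out each sample. Added after seeing the data were fits without the 4 near-identical arrays of unlike dose, without arrays of high 3' to 5' difference, and of only the arrays compared without DE-71 50 mg/kg replicate 2. Promoters came from a RefSeq table (GRCr8). Same-numbered samples of an agent had a median correlation of their deviations from group means of 0 to 0.07, with single pairs from -0.42 to 0.44. The main fit did not pair samples by number. Medians over all genes cannot tell whether the numbers mark shared litters or batches.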

Additional observations from a re-analysis of the deposited data

Results flagged for a closer look

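Among 150 groups of values (the 5 inducible genes, Psmb5, Psmb7 and the 3 class means in each of the 15 groups), a Dixon criterion marked 11 values that stood far from the rest of their group, 3 of them from 1 sample (PCB126 50 mg/kg replicate 5), where chance marks about 1 in 20 groups. In PCB126 50 mg/kg replicate 5, Psmb5 read 11.08 (others 10.37 to 10.54), Psmb7 9.92 (8.94 to 9.05) and the mean level of the core 10.67 (10.11 to 10.2). In PCB126 10 mg/kg, the inducible mean was 9.45 in replicate 5 (others 8.65 to 8.82) and the core mean 9.99 in replicate 3 (10.12 to 10.17). The inducible mean of DE-71 15 mg/kg replicate 4 was 9.26 (others 8.78 to 8.86), and Psmb7 in DE-71 0 mg/kg replicate 5 was low at 8.4 (9.17 to 9.47). Psme1 read 10.99 in PBDE-47 15 mg/kg replicate 4 (10.65 to 10.7) and Psmb7 read 9.12 in PBDE-47 0.1 mg/kg replicate 4 (8.77 to 8.84). Under phenobarbital, Psmb5 read 10.93 in 0 mg/kg replicate 1 (10.67 to 10.74) and the cap mean was 9.72 in 45 mg/kg replicate 5 (9.52 to 9.58).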

How the results depend on the processing

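No called value changed sign in any alternative. At PBDE-47 15 mg/kg (4 calls) the count was 10 with every array as a sample, 0 with only the arrays compared (28 with an unadjusted p below 0.05), 0 without the near-identical arrays (19) and 1 without arrays of high 3' to 5' difference, and leaving out single samples gave 0 to 8. At DE-71 15 mg/kg (4 calls) it was 2 after another quantile normalization, 9 with every array as a sample, 7 with the replicate block and 0 with only the arrays compared (24), and 2 to 4 with single samples left out. Without arrays of high 3' to 5' difference, Psmd2, Psmd5 and Psme4 lost their calls there. At DE-71 50 mg/kg (34 calls) the count was 0 with only the arrays compared, with or without replicate 2 (33 and 25), and 5 (without replicate 2) to 39 with single samples left out. At PBDE-47 50 mg/kg (12 calls) single samples gave 8 to 14, and at phenobarbital 45 mg/kg (7 calls) 2 to 6. For the difference between DE-71 and PBDE-47 at 50 mg/kg (0 calls), 1 gene passed with the replicate block (Psmb8), without the near-identical arrays (Psmb8) and without arrays of high 3' to 5' difference (Psmb10), and 0 to 1 with single samples left out. With the replicate block the counts were 3, 10, 34 and 7 at PBDE-47 15 and 50 mg/kg, DE-71 50 mg/kg and phenobarbital 45 mg/kg. The cause of these shifts was not tested. Fits of only the arrays compared hold fewer samples in every comparison. At PBDE-47 50 mg/kg such a fit lost the calls of Psmc5 and Psmd12 alone. At phenobarbital 45 mg/kg it lost that of Psmd2 alone. Signal of dim probe sets and group sizes of 4 or 5 limit what could be detected.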
